A study of Mus musculus with 5 samples.

Results

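Genes used to tell classes of GABAergic interneurons apart were followed in ribosome-bound RNA of *Drd2* cells of the mouse central amygdala (CeA). The set holds *Calb1*, *Calb2*, *Pvalb*, *Vip*, *Cck*, *Nos1*, *Reln* and *Lhx6*. Rows of the table were matched to these names, with no use of their values. All 8 were found, among 15093 genes listed, and each of the 8 passed the filter on low values, a mean of at least 1 CPM. CPM here are counts per 1000000 reads of an effective library size, so the values of a library summed to 932938 to 1042030.

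RNA came from translating ribosome affinity purification (TRAP), in which tagged ribosomes are pulled down with the mRNA they carry. Adult Drd2-TRAP mice, in which a Drd2-Cre transgene switches on the EGFP-tagged ribosomal protein L10a, supplied all 5 libraries, so both groups carried the same alleles. The fear conditioned group had 3 libraries (replicates 2, 3 and 4) and the control group 2 (replicates 6 and 7), each a pool of CeA punches from 3 animals whose brains were taken 2 h after the session. The labels call the controls home cage animals and place collection after extinction. In the paper they are home cage controls in one place and animals given the tone in the chamber without shock in another. It places collection after conditioning, in which the other group had the tone paired with foot shock. The tag marks any cell with Cre activity within the punch, and RNA carried over from untagged cells is also read. A library is a pool, so the spread between libraries is the only replicate error available, and fewer cells of a type cannot be told apart from less RNA per cell.

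Cortical and amygdala interneurons are local inhibitory cells that are commonly sorted by a calcium-binding protein, a neuropeptide or an enzyme that each class makes. Cells born in the medial ganglionic eminence keep the transcription factor Lhx6 and give rise to parvalbumin, somatostatin and nitric oxide synthase classes, while the caudal ganglionic eminence gives rise to classes with Vip, calretinin or Cck. Several of these genes are also used by other neurons, among them the GABAergic projection neurons of the CeA and, for *Cck*, glutamatergic neurons of the cortex and basolateral amygdala.

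The libraries held 19605318 to 27937520 reads on genes, recovered from the deposited values, so that 3 reads correspond to 0.1002 to 0.158 CPM. The 2 control libraries differed from each other far more than the fear conditioned libraries did, with a biological coefficient of variation from edgeR of 1.19 in controls and 0.252 in the fear conditioned group. Control 7 had 2681 genes at 0 and control 6 had 976, against 159 to 349 in the fear conditioned libraries. Markers of the tagged cells were present in every library, with a summed level of 6 D2 projection neuron markers of 19090 to 20790 CPM after fear conditioning and 7609 to 11950 CPM in controls. *Penk* made up most of this sum, at 16080, 13560 and 14950 CPM after fear conditioning and 6098 and 8606 CPM in controls. *Drd2* itself stood at 326, 375 and 555 CPM in fear conditioned libraries 2, 3 and 4 and at 128 and 262 CPM in controls 6 and 7. Because of the gap between the controls, results are given with both of them and, where a call changes, without each.

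The levels of the 8 genes were first compared with each other, per kb of the deposited gene length. *Calb1* ranked first in all 5 libraries, with 245 to 285 CPM per kb in the fear conditioned libraries and 255 and 133 CPM per kb in controls 6 and 7. *Cck* followed in 4 of 5 libraries, at 17.4 to 68.5 CPM per kb after fear conditioning and at 90.1 and 79.5 CPM per kb in controls 6 and 7. In fear conditioned library 4, *Pvalb* took that place with 19.2 CPM per kb. Averaged over the 5 libraries, the order was *Calb1* at 235.6, *Cck* at 58.8, *Pvalb* at 14.9, *Calb2* at 10.5, *Nos1* at 3.68, *Vip* at 2.75, *Lhx6* at 2.66 and *Reln* at 1.43 CPM per kb. Only the range of *Calb1* over the libraries lay apart from that of its neighbour, and from *Cck* down each gene overlapped with the next. The last place went to *Reln* in 3 libraries, to *Vip* in fear conditioned library 4 and to *Lhx6* in control 7.

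**Figure D1:**
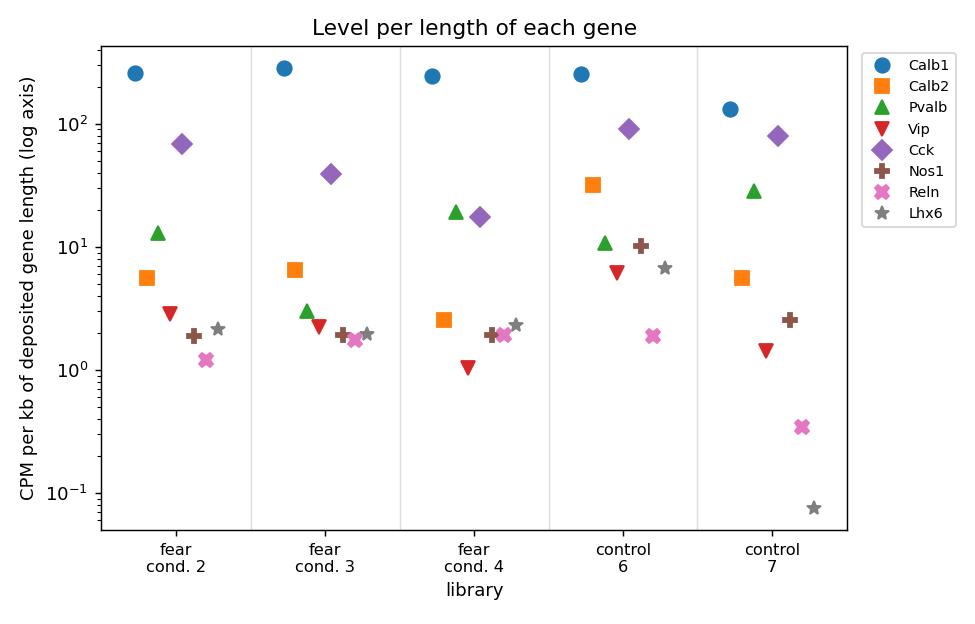
Level of each of the 8 genes in each library, as CPM per kb of gene length on a log axis, with 1 marker per gene and library. *Calb1* lies above all other genes in every library, and *Lhx6* in control 7 (0.0756 CPM per kb) is the lowest point.

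The first group by role is the EF-hand calcium-binding proteins, which bind calcium in the cytosol and shape its transients. *Calb1* (ENSMUSG00000028222) encodes calbindin, made by some interneurons and by many GABAergic projection neurons of the striatum and CeA. Its level was 1317, 1436 and 1236 CPM in fear conditioned libraries 2, 3 and 4 and 1284 and 671 CPM in controls 6 and 7. Control 6 lay inside the fear conditioned range and control 7 lay below it. Within each library *Calb1* stood above at least 98.7% of listed genes, control 7 included. The means were 1330 ± 101 CPM (SD, n = 3) after fear conditioning and 978 ± 433 CPM (SD, n = 2) in controls. On the log2(CPM + 1) scale the difference was 0.51 with an SE of 0.33, and limma gave an adjusted p of 0.457. The call turned on control 6: without it the difference was 0.98 with an adjusted p from limma of 0.0115, and without control 7 it was 0.047. Per kb, the ratio of *Calb1* to *Gad1*, the gene for a GABA-synthesizing enzyme, was 2.42, 2.40 and 2.02 after fear conditioning, against 2.64 and 1.05 in controls 6 and 7.

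*Calb2* (ENSMUSG00000003657) encodes calretinin, found in a set of interneurons that partly overlaps with the Vip class. It was measured at 9.62, 11.3 and 4.37 CPM in fear conditioned libraries 2, 3 and 4 and at 55.3 and 9.76 CPM in controls 6 and 7, from 88 to 1657 reads. Control 6 was the high library, and control 7 fell within the fear conditioned range. Means were 8.44 ± 3.63 CPM (SD, n = 3) and 32.5 ± 32.2 CPM (SD, n = 2) in fear conditioned and control groups. The log2 difference was −1.47 (SE 0.83), with a limma adjusted p of 0.413. Without control 7 it became −2.66 (adjusted p = 0.00746 by limma), and without control 6 it was −0.27. The difference of *Calb2* thus rested on a single control library.

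*Pvalb* (ENSMUSG00000005716) encodes parvalbumin, the marker of fast-spiking interneurons. Its level was 20.8, 4.87 and 31.0 CPM in fear conditioned libraries 2, 3 and 4 and 17.3 and 46.3 CPM in controls 6 and 7. Fear conditioned library 3 was the lowest and control 7 the highest, while control 6 lay inside the fear conditioned range. The means of 18.9 ± 13.2 CPM (SD, n = 3) and 31.8 ± 20.49 CPM (SD, n = 2) differed by −0.88 on the log2 scale (SE 0.84, adjusted p = 0.616 by limma). The spread within the fear conditioned group was wide for this gene, 6.37-fold from the lowest to the highest library. Only 8 tested genes had a larger range over these 3 libraries on the log2(CPM + 1) scale.

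**Figure D2:**
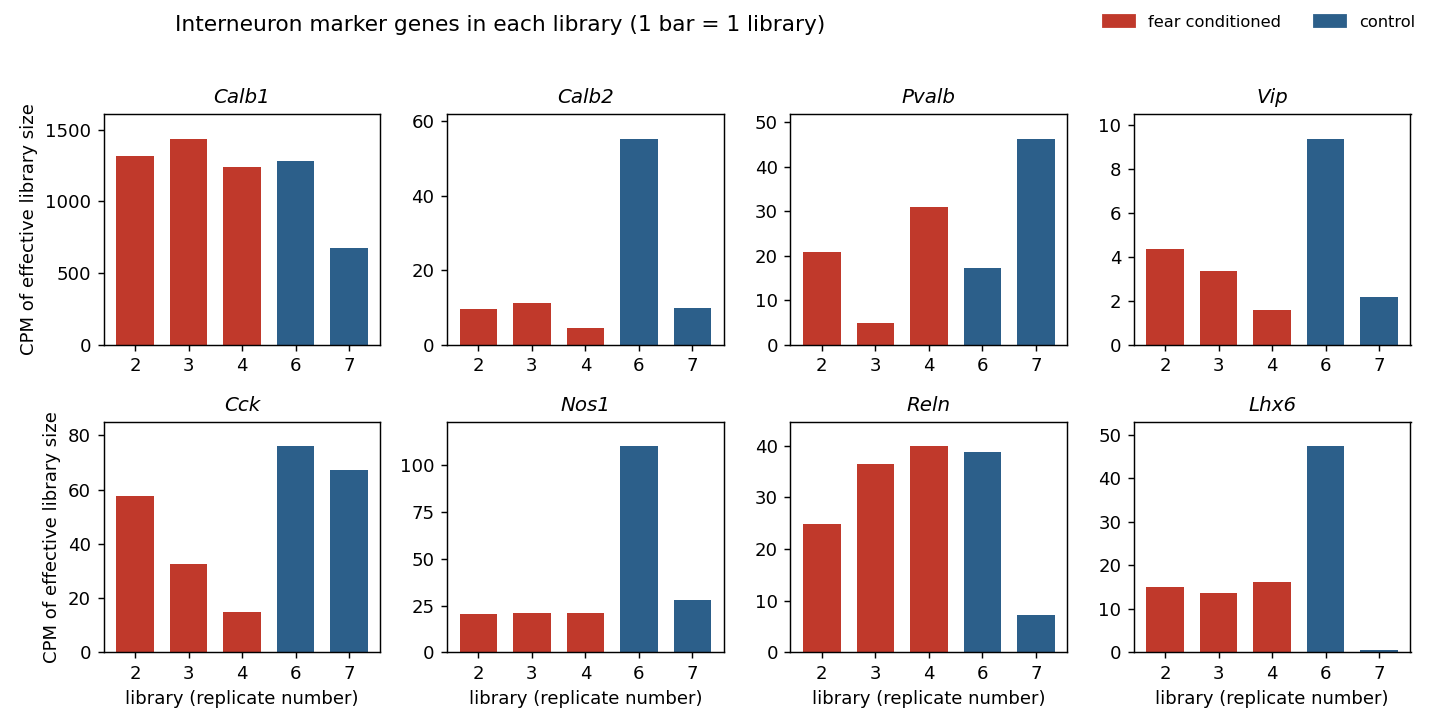
CPM of each of the 8 genes, with 1 bar per library from a zero baseline, fear conditioned libraries in red, controls in blue, and a separate axis for each gene. The bars of the groups do not overlap in height for *Cck* and *Nos1*, both lower after fear conditioning, and *Lhx6* in controls 6 and 7 (47.4 and 0.527 CPM) lies on either side of the fear conditioned libraries.

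The calcium-binding list as a whole had 9 genes, of which 7 were listed and tested, *Calb1*, *Calb2* and *Pvalb* among them. Of these 7, limma called none after adjustment, 1 had an unadjusted p under 0.05, and the median log2 difference was 0.44. For all 13560 tested genes the median log2 difference was 0.083, and 16.8% had an unadjusted p under 0.05 in limma. The 1 gene of the list with such a p was *Necab2*, a neuronal calcium-binding protein. It had 1066, 1105 and 1024 CPM after fear conditioning against 558 and 304 CPM in controls 6 and 7. Its groups did not overlap, with a log2 difference of 1.37 (SE 0.30) and an adjusted p of 0.197 by limma. *Scgn*, which encodes secretagogin, was at 0 in control 7.

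The neuropeptide genes come next. *Vip* (ENSMUSG00000019772), the peptide of interneurons that mostly inhibit other interneurons, was low in all libraries. It had 4.36, 3.37 and 1.59 CPM in fear conditioned libraries 2, 3 and 4 and 9.38 and 2.16 CPM in controls 6 and 7, from 32 to 281 reads. Control 6 was again the high library and control 7 lay among the fear conditioned values. The means were 3.11 ± 1.41 CPM (SD, n = 3) and 5.77 ± 5.11 CPM (SD, n = 2), and the log2 difference was −0.54 (SE 0.74, adjusted p = 0.731 by limma). The direction depended on the controls, since without control 6 the difference was 0.31 and without control 7 it was −1.40. Per kb, *Calb2* exceeded *Vip* in each library, by 1.94, 2.95 and 2.42 times in the fear conditioned libraries and by 5.18 and 3.96 times in controls 6 and 7.

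*Cck* (ENSMUSG00000032532) encodes cholecystokinin, which marks a class of basket cells and is also abundant in glutamatergic neurons of cortex and basolateral amygdala. Its level was 57.8, 32.7 and 14.7 CPM in fear conditioned libraries 2, 3 and 4 and 76.0 and 67.1 CPM in controls 6 and 7. Every fear conditioned library lay below both controls, and fear conditioned library 4 was the lowest. The controls differed by only 1.13-fold, a smaller gap than in 89.3% of tested genes, whereas the fear conditioned libraries spanned 3.93-fold, a range that 48 tested genes exceeded. The group means were 35.1 ± 21.6 CPM (SD, n = 3) and 71.5 ± 6.31 CPM (SD, n = 2). On the log2(CPM + 1) scale the difference was −1.20 (SE 0.56), which limma did not call (adjusted p = 0.343). It stayed negative with each library left out in turn, between −1.65 and −0.70. The exact two-sided permutation test over all 10 assignments of the libraries to the groups gave p = 0.2 for *Cck*.

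Markers of pallial glutamatergic neurons were set beside *Cck*. The summed level of 8 such markers was 205, 197 and 50.2 CPM in fear conditioned libraries 2, 3 and 4 and 370 and 309 CPM in controls 6 and 7. *Slc17a7*, the vesicular glutamate transporter of cortical and basolateral neurons and a gene singled out after its values were seen, had 152, 141 and 34.5 CPM and 227 and 197 CPM in the same order. *Cck*, *Slc17a7* and the marker sum thus shared the order of the libraries, from fear conditioned library 4 at the bottom to control 6 at the top. *Slc17a7* made up most of the sum in every library, so the order of the sum is not separate from that of *Slc17a7*. Of the 8 pallial markers, 6 were lowest in fear conditioned library 4, against 8.12% of tested genes. Of the same 8, 4 were lower after fear conditioning without overlap of the groups, against 16.1% of tested genes. The part of these cells in the *Cck* values was not tested.

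**Figure D3:**
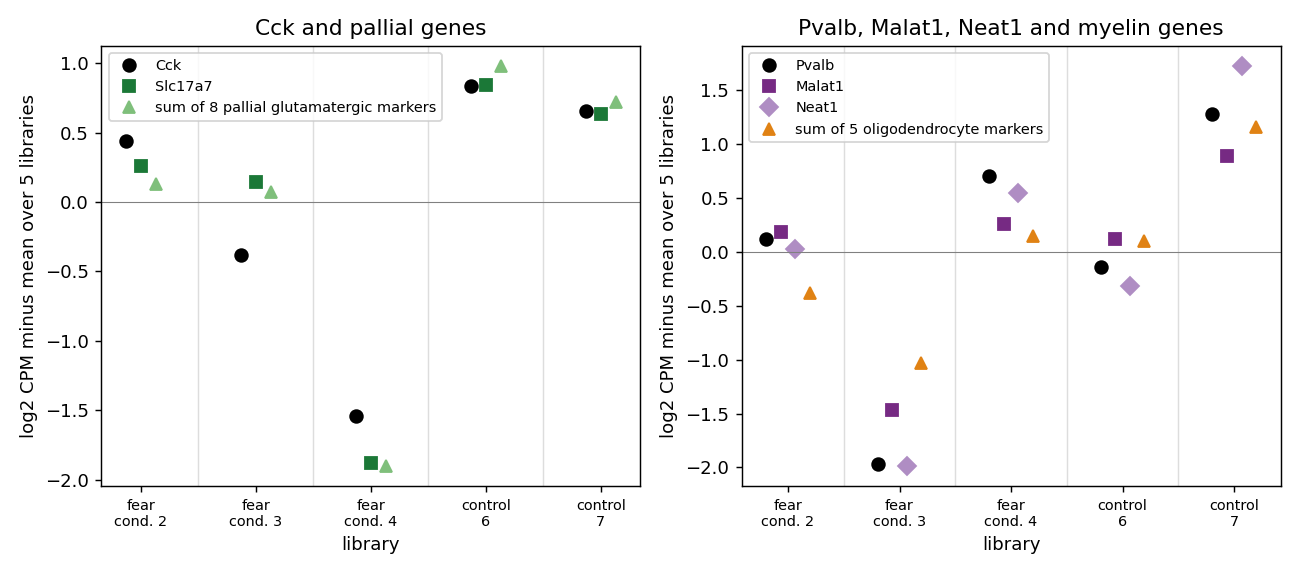
Log2 CPM of each gene or marker sum minus its own mean over the 5 libraries, with *Cck*, *Slc17a7* and the sum of 8 pallial markers on the left and *Pvalb*, *Malat1*, *Neat1* and the sum of 5 oligodendrocyte markers on the right. *Cck* and *Slc17a7* are lowest in fear conditioned library 4, and *Pvalb*, *Malat1*, *Neat1* and the oligodendrocyte sum are lowest in fear conditioned library 3 and highest in control 7.

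Receptors for these peptides were read from the same fit. *Cckbr*, the main brain receptor for cholecystokinin, had 17.6, 12.9 and 9.78 CPM after fear conditioning against 17.6 and 22.8 CPM in controls 6 and 7, a log2 difference of −0.58 (SE 0.47, adjusted p = 0.547 by limma) that is also the median of the receptor pair, since only it was listed. *Vipr1*, a receptor for Vip, had 7.68, 8.83 and 5.76 CPM in fear conditioned libraries and 0 and 1.42 CPM in controls 6 and 7. Its groups did not overlap, and limma gave a log2 difference of 2.42 (SE 0.63) with an adjusted p of 0.206. Controls 6 and 7 had 0 and 27 reads of *Vipr1*, so the size of this difference is uncertain. *Adcyap1r1*, a receptor for the related peptide Pacap, lay the other way, with 42.2, 46.7 and 43.2 CPM against 111 and 103 CPM. Its log2 difference was −1.26 (SE 0.24, adjusted p = 0.197 by limma). Of 3 tested genes of the Vip and Pacap list, 2 had an unadjusted p under 0.05, 1 in each direction, against 16.8% of tested genes. The list's median log2 difference was 0.14. *Vipr1* and *Adcyap1r1* therefore differed in sign, and neither passed the adjusted threshold.

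*Nos1* (ENSMUSG00000029361) encodes neuronal nitric oxide synthase, made by a class of long-range GABAergic cells that mostly also make Sst and Npy, and at lower levels by other interneurons. Its level was 20.6, 21.1 and 21.0 CPM in fear conditioned libraries 2, 3 and 4 and 110 and 28.0 CPM in controls 6 and 7. All fear conditioned libraries lay below both controls, and they lay close together. Their 1.03-fold spread was narrower than that of all but 96 tested genes on the log2 scale, while the controls differed 3.94-fold. The means were 20.9 ± 0.276 CPM (SD, n = 3) and 69.1 ± 58.2 CPM (SD, n = 2). The log2 difference of −1.37 (SE 0.59) had an unadjusted p of 0.056 and an adjusted p of 0.310 in limma, and DESeq2 on recovered reads gave an adjusted p of 0.0578, the lowest of a span up to 0.398 over the alternatives that kept all libraries. The exact permutation test gave p = 0.1, the smallest that 10 assignments allow. With control 7 left out limma called *Nos1* lower (log2 difference −2.35, adjusted p = 0.00284), and with control 6 left out the log2 difference was −0.40 (adjusted p = 0.190 by limma).

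The nitric oxide list held partners of *Nos1* and the enzymes downstream of the gas. Of 7 tested genes, limma called none and 1 had an unadjusted p under 0.05, against 16.8% of all tested genes. Groups did not overlap for 1 in each direction, against 20.2% of all tested genes higher and 16.1% lower. The list's median log2 difference was −0.01. *Gucy1a2*, a subunit of the guanylate cyclase that nitric oxide activates, had 4.46, 1.71 and 5.56 CPM after fear conditioning against 0.200 and 0.106 CPM in controls 6 and 7 (log2 difference 2.00, SE 0.60, adjusted p = 0.222 by limma). Its control values rest on 6 and 2 reads, the latter below the floor of 3 reads, so the size of this difference is uncertain. *Ddah1*, which breaks down an inhibitor of the synthase, had 55.6, 34.0 and 55.2 CPM against 56.8 and 125 CPM, a log2 difference of −0.82 (adjusted p = 0.381 by limma). *Nos1ap*, an adaptor that binds the synthase, differed by −0.67 (SE 0.43, adjusted p = 0.462 by limma). These partners thus did not share a direction.

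*Reln* (ENSMUSG00000042453) encodes reelin, a secreted glycoprotein that guides neuronal positioning in development and is kept by several interneuron classes in the adult. It was measured at 24.8, 36.5 and 39.9 CPM in fear conditioned libraries 2, 3 and 4 and at 38.8 and 7.17 CPM in controls 6 and 7. Control 6 fell inside the fear conditioned range and control 7 below it. The means of 33.8 ± 7.94 CPM (SD, n = 3) and 23.0 ± 22.4 CPM (SD, n = 2) gave a log2 difference of 0.92 (SE 0.70, adjusted p = 0.528 by limma). Without control 6 the difference was 2.06 with an adjusted p of 0.00153 by limma, and without control 7 it turned to −0.22.

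Reelin acts on the receptors Vldlr and Lrp8, which signal through Dab1 and Src family kinases. *Vldlr* had 38.9, 55.0 and 59.6 CPM in fear conditioned libraries and 85.9 and 91.2 CPM in controls 6 and 7, so the groups did not overlap (log2 difference −0.80, SE 0.29, adjusted p = 0.254 by limma). *Lrp8* stood at 15.9, 13.0 and 13.1 CPM against 60.6 and 10.4 CPM, with control 6 high and control 7 lowest. *Dab1* differed by 0.27 on the log2 scale (SE 0.50, adjusted p = 0.802 by limma). *Src* was lower in every fear conditioned library than in either control, at 14.9, 13.1 and 13.9 CPM against 23.4 and 100 CPM. Its log2 difference was −1.73 (SE 0.63, adjusted p = 0.259 by limma), and that of *Rapgef1*, an exchange factor on the same path, was −1.12. The related kinase gene *Fyn*, singled out after its values were seen, lay the other way, at 120, 160 and 129 CPM against 112 and 75.4 CPM, also without overlap (log2 difference 0.56, SE 0.27, adjusted p = 0.358 by limma). Of 9 pathway genes tested, 3 had an unadjusted p under 0.05, against 16.8% of all tested genes. None was called, and the median log2 difference was −0.52.

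*Lhx6* (ENSMUSG00000026890), the transcription factor kept by cells of the medial ganglionic eminence, showed the largest gap between controls of the 8 genes. Its level was 15.0, 13.7 and 16.1 CPM in fear conditioned libraries 2, 3 and 4, and 47.4 and 0.527 CPM in controls 6 and 7, the last from 10 reads. Control 6 lay above all fear conditioned libraries and control 7 below all of them. The controls were 89.9-fold apart, and 0.974% of tested genes (132 genes) had a larger gap on the log2 scale. The fear conditioned libraries were only 1.18-fold apart. The group means were 14.9 ± 1.22 CPM (SD, n = 3) and 24.0 ± 33.2 CPM (SD, n = 2). With both controls the log2 difference was 0.89 (SE 1.37, adjusted p = 0.766 by limma), although the mean CPM was higher in controls, and on recovered reads it had the opposite sign in edgeR (−0.63) and DESeq2 (−0.67). With either control left out limma called *Lhx6*, but in opposite directions, as 3.38 without control 6 (adjusted p = 0.000171) and −1.61 without control 7 (adjusted p = 0.00701). No direction for *Lhx6* can be given from these libraries.

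The gap in *Lhx6* carried into ratios with genes of the same lineage. Per kb, *Pvalb* exceeded *Lhx6* by 5.99, 1.54 and 8.31 times in the fear conditioned libraries and by 1.57 and 379 times in controls 6 and 7. The ratio of *Nos1* to *Lhx6* per kb was 0.877, 0.984 and 0.829 in the fear conditioned libraries, close to equal levels, and 1.48 and 33.8 in controls 6 and 7. In control 7, therefore, *Pvalb* and *Nos1* were read above their fear conditioned levels while *Lhx6* was nearly absent. The somatostatin gene *Sst*, which marks the other large class of this lineage, was not low in control 7 either, at 133, 65.5 and 72.0 CPM after fear conditioning against 146 and 280 CPM in controls 6 and 7 (log2 difference −1.23, SE 0.42, adjusted p = 0.246 by limma). *Npy* had 53.2, 28.5 and 31.0 CPM against 49.6 and 119 CPM, with a log2 difference of −1.07 (SE 0.48, adjusted p = 0.326 by limma).

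Genes of the same lineages were counted from fixed lists. Of 6 tested medial eminence factors, *Lhx6* included, none had an unadjusted p under 0.05, against 16.8% of all tested genes. Of these factors, 2 were lower after fear conditioning without overlap, against 16.1% of all tested genes, and the median log2 difference was −1.09. The pair without overlap was *Maf*, at 3.37, 6.62 and 8.49 CPM against 24.0 and 10.3 CPM, and *Satb1*, at 23.4, 25.1 and 16.5 CPM against 32.2 and 59.2 CPM. *Nkx2-1*, the factor that induces *Lhx6*, was at 0 in control 7. Of 6 tested caudal eminence genes, 1 had an unadjusted p under 0.05, *Nr2f2*, with 26.8, 20.45 and 8.19 CPM after fear conditioning and 120 CPM in both controls (log2 difference −2.77, SE 0.52, adjusted p = 0.197 by limma). The list's median was 0.35, and *Prox1*, *Sp8* and *Htr3a* were at 0 in control 7.

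Class markers outside the 8 genes were counted in the same way. Of 6 fast-spiking cell genes, 2 had an unadjusted p under 0.05, 2 were higher and 2 lower without overlap, and the median log2 difference was −0.15. Over all tested genes, 16.8% had such a p in limma, and 20.2% were higher and 16.1% lower without overlap. *Erbb4*, the neuregulin receptor of these cells, had 6.07, 5.997 and 9.68 CPM after fear conditioning against 56.0 and 72.5 CPM in controls 6 and 7 (log2 difference −3.0, SE 0.44, adjusted p = 0.197 by limma). *Pthlh* had at most 2 reads in either control, so no fold is given for it. The potassium channel gene *Kcnc1* had a log2 difference of −0.41. Of the 6 Sst and Npy cell genes, 3 were lower without overlap, against 16.1% of tested genes, and 1 had an unadjusted p under 0.05. Their median was −1.15, with *Crhbp* at −1.32 and *Cort* at −1.30. The other interneuron markers, 7 tested, had a median of 0.61 and no unadjusted p under 0.05.

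All classes share the genes for making and moving GABA. *Gad1* was nearly level, at 820, 902 and 921 CPM in fear conditioned libraries and 734 and 968 CPM in controls 6 and 7 (log2 difference 0.06, SE 0.23, adjusted p = 0.909 by limma). *Gad2*, for the second synthesizing enzyme, lay below both controls in every fear conditioned library, at 436, 481 and 472 CPM against 657 and 671 CPM (log2 difference −0.52, SE 0.20, adjusted p = 0.271 by limma). *Slc32a1*, the vesicular GABA transporter, had 27.7, 15.5 and 32.1 CPM against 7.41 and 185 CPM, so that its controls lay on either side of the fear conditioned libraries, in the reverse order to *Lhx6*. Of the 5 genes, 1 had an unadjusted p under 0.05, against 16.8% of all tested genes, and the median log2 difference was −0.52.

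Across the 8 genes, limma called none (adjusted p below 0.05 with a log2 difference of over 0.5 in either direction), as it called 0% of 13560 tested genes (smallest adjusted p 0.197). At an unadjusted p under 0.05 limma found 0 of the 8, against 16.8% of tested genes (2280 genes). The quasi-likelihood test of edgeR and limma voom called 0 genes, with 2404 and 2543 genes at an unadjusted p under 0.05 and 1 of the 8 in each. DESeq2 called 8.94% of 14489 genes and none of the 8. At an unadjusted p under 0.05 it found 2 of the 8, against 3137 of 14489 genes. The 8 genes ran from a log2 difference of −1.47 for *Calb2* to 0.92 for *Reln*, with 3 above 0 and a median of −0.71, while 54.0% of all tested genes lay above 0. Both controls lay above all fear conditioned libraries for 2 of the 8, *Cck* and *Nos1*, against 16.1% of tested genes, and both lay below for none, against 20.2% of tested genes.

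**Figure D4:**
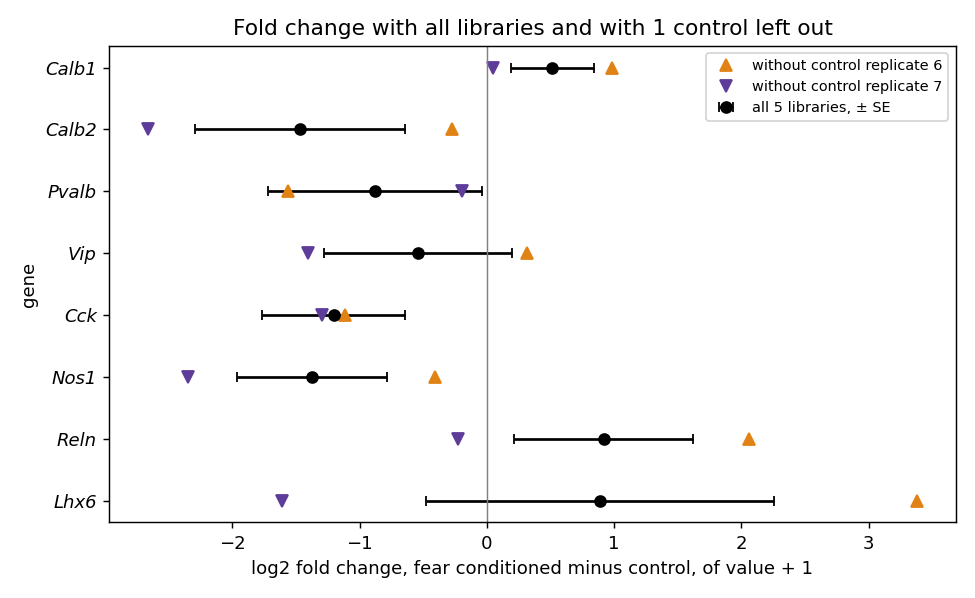
Log2 fold change of CPM + 1, fear conditioned minus control, for the 8 genes with all libraries (black, bars are SE) and with control 6 or control 7 left out (triangles). The values with 1 control lie on either side of 0 for *Vip*, *Reln* and *Lhx6* and nearly coincide for *Cck*.

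Leaving out a control changed the calls. Without control 6, limma called 60.5% of tested genes and 3 of the 8, *Calb1*, *Lhx6* and *Reln*, all higher after fear conditioning. Without control 7, it called 27.5% of tested genes and 3 of the 8, *Calb2*, *Lhx6* and *Nos1*, all lower. In these fits the lone control is assumed to vary like the fear conditioned libraries, so the calls carry no measure of the spread among controls. Over the 5 fits with a library left out, adjusted p from limma ran from 0.0115 to 0.907 for *Calb1*, 0.00746 to 0.785 for *Calb2*, 0.000171 to 0.903 for *Lhx6*, 0.00284 to 0.729 for *Nos1* and 0.00153 to 0.824 for *Reln*. Among the 8, *Lhx6* was the only gene called in both, with opposite signs. *Pvalb*, *Vip* and *Cck* were called in neither.

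The spread within each group was set beside that of all tested genes on the log2(CPM + 1) scale. The gap between the controls had a median of 1.83 over the 8 genes and 1.08 over all tested genes, and it exceeded 1 for 6 of 8 against 52.7% of tested genes. The range over the fear conditioned libraries had a median of 0.858 over the 8 and 0.443 over all tested genes, and it exceeded 1 for *Pvalb*, *Cck*, *Calb2* and *Vip*, 4 of 8 against 8.31% of tested genes. *Nos1*, *Lhx6* and *Calb1* were at the other end, with ranges of 0.0355, 0.221 and 0.217. The highest library was control 6 for 5 of the 8, against 30.0% of tested genes. The lowest library was fear conditioned library 4 for *Calb2*, *Vip* and *Cck*, against 8.12% of tested genes, and control 7 for *Calb1*, *Lhx6* and *Reln*, against 43.7%.

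**Figure D5:**
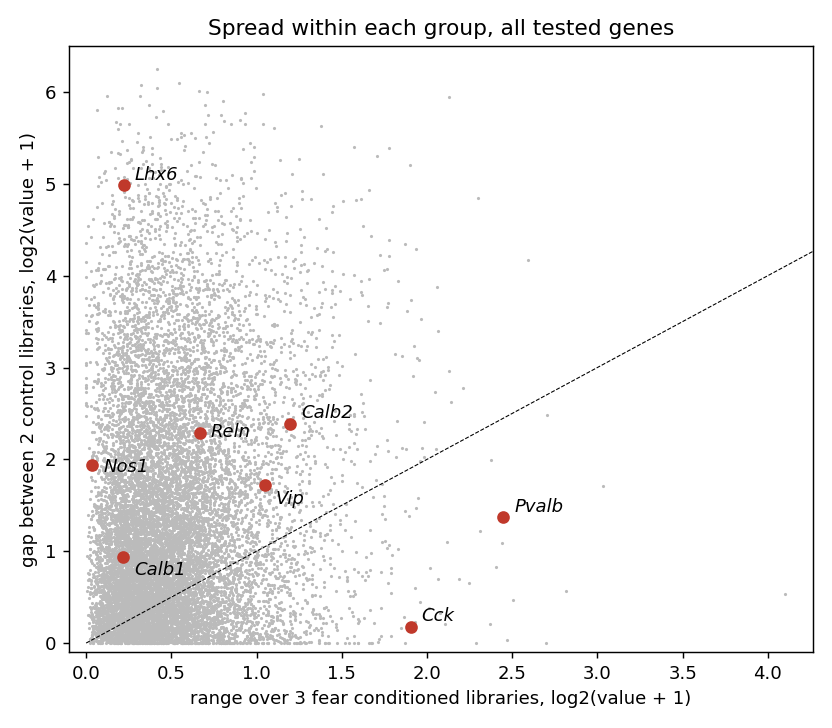
Gap between the 2 controls (vertical axis) against the range over the 3 fear conditioned libraries (horizontal axis), in log2(CPM + 1) units, with all tested genes in grey, the 8 genes in red and a dashed line where gap and range are equal. *Pvalb* and *Cck* lie below the line and the other 6 above it. Among the 8, *Lhx6* has the largest control gap (4.99), *Pvalb* the largest range (2.45) and *Nos1* the smallest (0.0355).

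The genes whose pattern over the 5 libraries was most like that of a member were found for the 4 members with an SD of at least 1 on the log2 scale, by the root mean square log2 difference after each gene's mean was subtracted. Nearest to *Pvalb* were the nuclear long noncoding RNAs *Neat1* (0.231) and *Malat1* (0.299), then *Tmbim1* (0.380), and only 1 tested gene came within 0.25. *Malat1* had 1662, 527 and 1750 CPM in fear conditioned libraries 2, 3 and 4 and 1581 and 2708 CPM in controls 6 and 7, low and high in the same libraries as *Pvalb*. The sum of 5 oligodendrocyte markers, set beside *Pvalb* after the values were seen, was likewise lowest in fear conditioned library 3 and highest in control 7. It was 1663, 1059 and 2399 CPM against 2322 and 4831 CPM. Other sums shared these extremes, such as that of the 6 Sst and Npy cell genes, at 213, 116 and 128 CPM against 238 and 436 CPM. Whether these RNAs or cells have a part in the *Pvalb* values was not tested.

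For *Calb2* the nearest genes were *Wdr6* (0.198), *Smoc1* (0.210) and *Slit1* (0.2504), with 2 tested genes within 0.25. *Wdr6* had 62.3, 65.3 and 42.0 CPM after fear conditioning against 322 and 63.7 CPM in controls 6 and 7, high in control 6 alone as *Calb2* was. For *Lhx6*, *4732471D19Rik* (0.0457), *Nbas* (0.0666) and *Herc4* (0.127) came first. Within 0.25 lay 38 of 13560 tested genes, which shared its pattern of a high control 6 and a low control 7. *Nbas*, for example, had 19.2, 15.4 and 18.4 CPM after fear conditioning against 57.3 and 0.844 CPM in controls 6 and 7. For *Nos1* the nearest were *Ssh1* (0.150), *Triobp* (0.152) and *Cdc42ep2* (0.157), with 29 tested genes within 0.25. *Pvalb* and *Calb2* had the rarer patterns of these 4.

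Markers of other cells differed between the groups and are given beside these results. The 6 choroid plexus markers summed to 57.8 to 110 CPM after fear conditioning and 1006 to 1416 CPM in controls, 3 of 5 tested being lower without overlap, with *Kcnj13* and *Folr1* at 0 in fear conditioned library 2 and *Aqp1* at 0 in fear conditioned libraries 3 and 4 and control 7. Most of the control sums was *Ttr*, at 913 and 1320 CPM in controls 6 and 7 and 0.522, 22.1 and 0.348 CPM after fear conditioning. Most of the fear conditioned sums was *Clic6*, which was nearly level between the groups (log2 difference 0.08). The 5 astrocyte markers summed to 206 to 247 CPM and 473 to 562 CPM, with 3 lower without overlap, and the 5 oligodendrocyte markers all had a negative log2 difference, 2 of them without overlap. The D1 projection neuron markers lay the other way, at 175 to 359 CPM after fear conditioning and 101 to 109 CPM in controls, with 3 of 4 higher without overlap, as were all 6 D2 markers. Over all tested genes, 16.1% were lower and 20.2% higher without overlap. Microglia markers summed to 30.4 to 53.2 CPM and 46.2 to 62.5 CPM, and endothelial markers to 3.87 to 22.5 CPM and 10.4 to 18.2 CPM, with *Tek* at 0 in both controls. The part of these cells in the values of the 8 genes was not tested. Taken relative to *Drd2* within each library, which moves the median of all genes to −1.07, the log2 differences of *Calb1*, *Lhx6* and *Reln* turned to −0.63, −0.26 and −0.23, and those of the other 5 genes stayed negative. On this scale 4 of the 8, *Calb2*, *Cck*, *Nos1* and *Pvalb*, had an unadjusted p under 0.05 in limma, against 3774 of 13560 tested genes, and none of the 8 was called.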

How the data were processed

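Ribosome-bound RNA from 5 libraries was sequenced. The authors deposited a normalized signal per gene, in CPM of an effective library size, with a gene length. The submitters' processing notes name DESeq and the build mm8, and the aligner and the use of strand are not given in the sources used here. Each library's values (100%) were integer multiples of its lowest value above 0, within 0.01, and served as recovered reads. Repeated names (43) were kept apart by identifier, and 14622 identifiers were matched to a table of gene names. Groups, taken from the labels, were compared with limma 3.58.1 (R 4.3.3, eBayes with a trend) on log2(CPM + 1) for genes with a mean of at least 1, in two-sided tests adjusted by Benjamini-Hochberg, and single genes also with an exact permutation test. Alternatives were edgeR 4.0.16, DESeq2 1.42.0 and limma voom on recovered reads, other pseudocounts, filters, scalings and cutoffs, and each library left out. Fits were tested on simulated data in which both groups had the same spread. That test does not cover the wide gap between the controls here. Figures and summaries used Python 3.11.15.

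The 8 genes and all lists were chosen with earlier results of these data known. Besides the 8, genes named are up to 3 per list with groups that did not overlap, a few partners named in the design, and the 3 genes nearest to a variable member. Animals were pooled, so p-values measure the spread between pools. Recovered reads are not independent molecules, so the floor of 3 reads covers counting error only. No sequences are shown. Some genes of the lists are not reported here.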

Additional observations from a re-analysis of the deposited data

How the results depend on the processing

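With all libraries, limma called 0 genes under each change of pseudocount, filter, scaling or cutoff except the ratio to *Drd2*, counted after the data were seen, with 3. DESeq2 called 1296. With 1 library left out the count of called genes ranged from 0 to 8025 (1 without fear conditioned replicate 3, 3722 without control 7), and that of the 8 genes from 0 to 3. The log2 differences with 1 library left out ranged from −1.56 to −0.15 for *Pvalb*, 0.047 to 0.98 for *Calb1*, −2.66 to −0.27 for *Calb2*, −1.40 to 0.31 for *Vip*, −1.65 to −0.70 for *Cck*, −1.61 to 3.38 for *Lhx6*, −2.35 to −0.40 for *Nos1* and −0.22 to 2.06 for *Reln*. Of 79 values of the 8 genes under the other alternatives, 74 kept their direction and side of the threshold. The 5 that turned were the ratios to *Drd2* of *Calb1* (−0.63), *Lhx6* (−0.26) and *Reln* (−0.23), and *Lhx6* in edgeR (−0.63) and DESeq2 (−0.67). The ratio takes the log2 level of *Drd2* in each library off every gene, and *Drd2* itself differed by 1.15. Positive differences smaller than that therefore turned negative. For *Lhx6* in edgeR and DESeq2 the cause was not tested. The filter that asks each library for a value of 1 or more left out *Lhx6*. The median over all genes, 0.083, was 0.246 with voom. No paired analysis was possible because the groups share no replicate numbers. In control 7, *Vip* and *Lhx6* rest on 41 and 10 reads, the fewest of the 8 genes in that library.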
